A study of Mus musculus with 8 samples.

Results

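The genes described here are the chemokines, interleukins, colony-stimulating factors and a few related cytokines of kidney cells from p16-tdTomato mice with chronic kidney disease. Members were the rows of the count table whose symbol was that of a CC or CXC chemokine or was Il followed by a number and at most the letter a or b, together with Cx3cl1, Csf1, Csf2, Csf3, Lif, Tnf, Osm, Clcf1, Kitl and Tslp. Receptors, Il18, Cklf and interleukin genes with other suffixes, such as Il17c, Il17f and Il1f6, were left out. This gave 77 of 25240 gene symbols. Of these, 33 (42.9%) passed the filter on low counts and were tested, against 14284 (56.6%) of the whole table, and 18 had no count in any library.

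The study sorted its libraries into Tomato-negative and Tomato-positive kidney cells, with 4 libraries of each. All came from p16-tdTomato mice given a diet rich in adenine to bring about the disease, so both groups carried the reporter and the diet, and no mice without kidney disease were among the 8 libraries. The genotype joins p16, an inhibitor of the cell cycle that marks senescent cells, with tdTomato, a red fluorescent protein. The promoter that drove the reporter, the age of the animals and the method of sorting are not stated in the sources used here. The labels call every library proximal tubular epithelial cell. Each of 4 identifiers (CKD523_2, CKD523_3, CKD627_1 and CKD627_2) named 1 negative and 1 positive library, and the meaning of the prefixes CKD523 and CKD627 is not stated.

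Library totals lay between 13474439 and 19886202 counts, and 1 CPM, a count scaled to the library total, was worth 13.5 to 19.9 counts. The reporter tdTomato lay at 79.5 to 159 CPM in the negative and at 3167 to 4143 CPM in the positive libraries. Markers of the proximal tubule summed to 4170 to 23900 CPM over the 8 libraries. Those of the loop of Henle (1800 to 15000 CPM) and of collecting duct principal cells (223 to 5680 CPM) were present too. So were markers of endothelial cells (65.5 to 777 CPM), podocytes (59.7 to 619 CPM) and fibroblasts and pericytes (108 to 451 CPM). The libraries thus held RNA of other tubule segments and of cells outside the tubule besides the labelled cell type. Whether each library stands for its own animal is not stated, so that p-values reflect only how far these samples vary. In such bulk libraries fewer cells of a type and less RNA per cell cannot be told apart.

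Chemokines are small secreted proteins that draw leukocytes along a gradient, through receptors that couple to G proteins. CXC chemokines with the glutamate-leucine-arginine motif act mainly on neutrophils, while many CC chemokines act on monocytes and lymphocytes. Interleukins and colony-stimulating factors steer the growth, survival and activity of blood and tissue cells, most of them through receptors that signal by JAK kinases and STAT factors. Senescent cells are known to secrete many of these proteins, and injured tubule epithelium is a known source of several of them.

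Results are given from an unpaired and a paired fit, both with edgeR's quasi-likelihood test over all 14284 genes and an adjusted p threshold of 0.05. The unpaired fit compared the groups directly, and the paired fit compared the positive with the negative library of each identifier. No member passed in the unpaired fit by edgeR (0 of 33, with 8 at an unadjusted p under 0.05), where 0.595% of all genes passed in either direction. By DESeq2 4 members, Csf1, Csf3, Cx3cl1 and Cxcl2, and 7.06% of all genes passed. In the paired fit 5 members rose in Tomato-positive cells, Lif, Csf1, Csf3, Cxcl1 and Cxcl2, which is 15.2% of those tested against 3.82% of all genes. None fell by edgeR (3.81% of all genes), with 13 members at an unadjusted p under 0.05 in either direction. The share of all genes under an unadjusted p of 0.05 was not counted, so such counts throughout have no background. By DESeq2 9 members were higher and 2 lower, with 14.2% of all genes called. The median log2 difference of the 33 tested members was 0.37 in the paired fit, against 0.01 over all genes, and 21 members had a positive and 12 a negative sign.

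**Figure D1:**
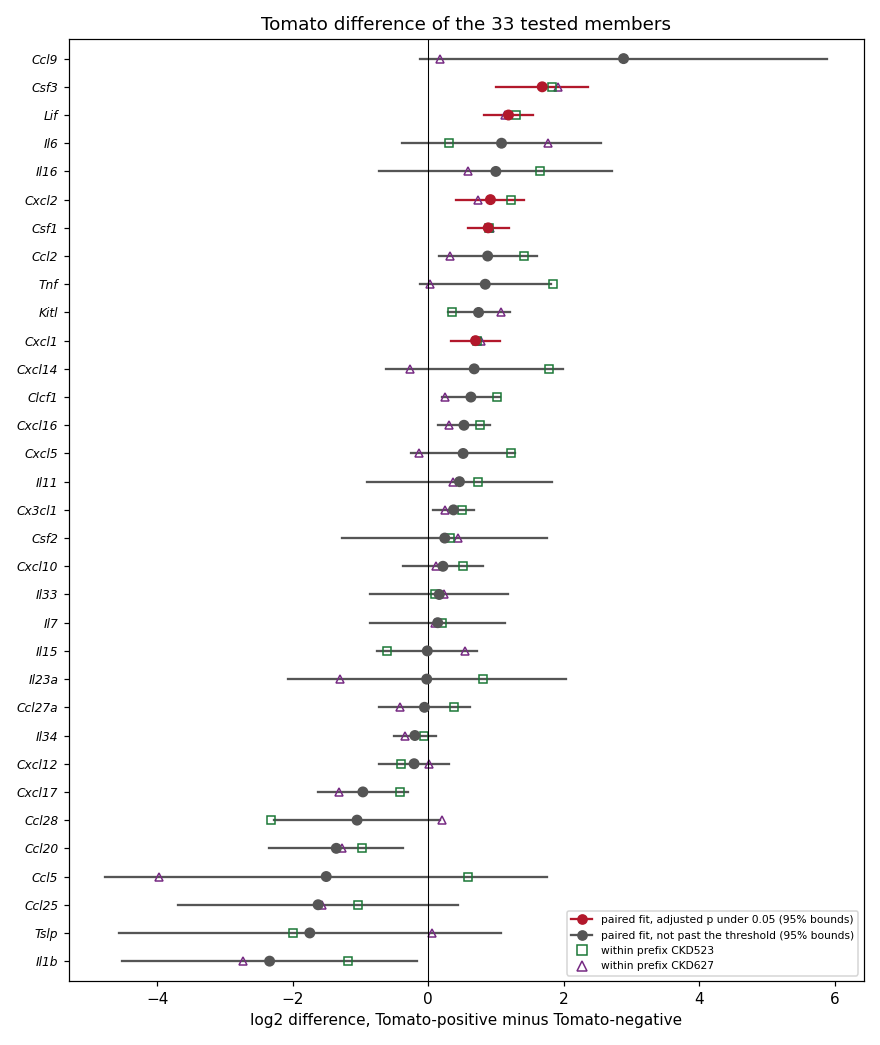
Log2 difference between Tomato-positive and Tomato-negative libraries for the 33 tested members, with 95% bounds from the paired fit, and the differences within each prefix as open symbols. The CKD523 difference of Ccl9 (8.76) is not drawn. The 5 members past the threshold in the paired fit are drawn in red, and all lie to the right of 0.

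Without pairing or testing, every positive library lay above every negative one for 3 members (9.09%, against 7.13% of all tested genes), which were Csf1, Cx3cl1 and Cxcl2. The reverse held for 2 (6.06%, against 5.69%), Ccl25 and Il1b. The positive library was higher in all 4 pairs for 11 members (33.3%, against 19.9% of all tested genes) and lower in all 4 pairs for 4 members (12.1%, against 15.5%). These counts used CPM by library totals rather than the TMM scale of the tests. Near ties, such as Cxcl2 in CKD627_1 (1.02-fold) and Il33 in CKD523_3 (1.004-fold), depend on that choice. Summed over all 77 members, the level was 962, 789, 901 and 965 CPM in the negative libraries of CKD523_2, CKD523_3, CKD627_1 and CKD627_2, and 1689, 1473, 1032 and 1456 CPM in the positive ones. The sum was higher in each positive library than in its partner, with the smallest gap in CKD627_1. Library values below are given in this order of identifiers.

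Within the IL-6 family, whose members share the signalling receptor subunit encoded by Il6st, the gene with most counts was Lif. Lif encodes leukemia inhibitory factor, which signals through Lifr and Il6st. It was at 209, 122, 74.8 and 110.5 CPM in the negative libraries and at 479, 372, 125 and 277 CPM in the positive ones. Positive libraries were higher in all 4 pairs, by 2.29-, 3.06-, 1.67- and 2.51-fold, but the groups overlapped, since both libraries of CKD627_1 lay lowest of their group. In the paired fit Lif rose by 1.18 ± 0.16 (SE) on the log2 scale (edgeR adjusted p = 0.00525, 0.209 unpaired). It passed without any 1 pair, with differences between 1.05 and 1.34. Lif held 15.4, 21.7, 8.31 and 11.5% of all member counts in the negative libraries CKD523_3, CKD523_2, CKD627_1 and CKD627_2, and 12.1 to 28.3% in the positive ones.

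Clcf1, whose product signals through the receptor of ciliary neurotrophic factor, had the next most counts in that family. It was at 33.04, 28.1, 41.6 and 34.7 CPM in the negative and at 65.5, 64.1, 51.4 and 39.5 CPM in the positive libraries. Both positive CKD523 libraries stood above all the others. In the paired fit the difference was 0.63 ± 0.19 (SE; edgeR adjusted p = 0.0798) and missed the threshold, which it passed without CKD627_1 (0.75, adjusted p = 0.0424). On 8.17% of its exon length Clcf1 shares bases with another gene model of the same strand, so some reads could belong to either. Il6 and Il11 had few counts, at 0.553 to 3.12 CPM, and neither passed. Il6 had 66 counts in negative and 150 in positive libraries. It was higher in 3 pairs and lower in CKD523_2 (paired 1.08 ± 0.65 (SE), edgeR adjusted p = 0.337). Il11, with 77 and 117 counts, was higher in 3 pairs and lower in CKD627_2 (0.46 ± 0.60 (SE), edgeR adjusted p = 0.681). Errors this wide do not show that the groups were alike. Osm, which encodes oncostatin M and lies beside Lif on chromosome 11, had 46 counts in all and was not tested. Of these, 41 were in positive libraries, 19 in CKD523_3 and 22 in CKD627_1.

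Of the 6 colony-stimulating factors and growth factors of the same kind, 5 were tested and 2 rose in the paired fit. Csf1, the growth factor of monocytes and macrophages that acts on Csf1r, was at 66.8, 55.2, 54.4 and 67.8 CPM in the negative libraries and at 125, 112, 88.9 and 141 CPM in the positive ones. The groups did not overlap, and each pair differed by 1.64- to 2.07-fold. Csf1 rose by 0.88 ± 0.13 (SE) on the log2 scale in the paired fit (edgeR adjusted p = 0.00799, 0.0603 unpaired). It no longer passed without CKD523_3 (adjusted p = 0.0633) or without CKD627_2 (0.051). Its differences within the prefixes, 0.89 in CKD523 and 0.91 in CKD627, were the only ones among members to pass in both.

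Csf3 encodes the granulocyte colony-stimulating factor, which drives the making and release of neutrophils. It was at 11.2, 8.77, 3.94 and 5.42 CPM in the negative and at 44.6, 29.8, 5.84 and 29.0 CPM in the positive libraries. Only the positive library of CKD627_1 lay within the range of the negative ones. Csf3 rose by 1.68 ± 0.30 (SE) on the log2 scale in the paired fit (edgeR adjusted p = 0.0144, 0.162 unpaired), which was the largest difference among the 5 members that passed. It was lost without CKD523_2 (adjusted p = 0.0547), CKD523_3 (0.0759) or CKD627_2 (0.0678).

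Il34, whose product is another ligand of Csf1r, showed no such difference. It lay at 82.8, 70.2, 96.5 and 74.1 CPM in the negative and at 76.7, 77.0, 73.5 and 61.3 CPM in the positive libraries. The paired log2 difference was -0.20, with 95% bounds of -0.51 and 0.11 (edgeR adjusted p = 0.399), and so left out a rise as large as that of Csf1. Kitl encodes stem cell factor, the ligand of Kit. It was at 12.0, 7.89, 35.3 and 39.0 CPM in the negative and at 12.8, 13.6, 81.4 and 75.6 CPM in the positive libraries. All 4 pairs were higher in the positive library, and the 2 positive CKD627 libraries stood far above the rest. With a paired difference of 0.74 ± 0.20 (SE; edgeR adjusted p = 0.0608) it missed the threshold in the paired fit, but it passed under 5 of 11 alternatives, among them without CKD523_2 (adjusted p = 0.0378). Csf2, the granulocyte and macrophage factor, had 167 counts over all libraries and did not pass.

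**Figure D2:**
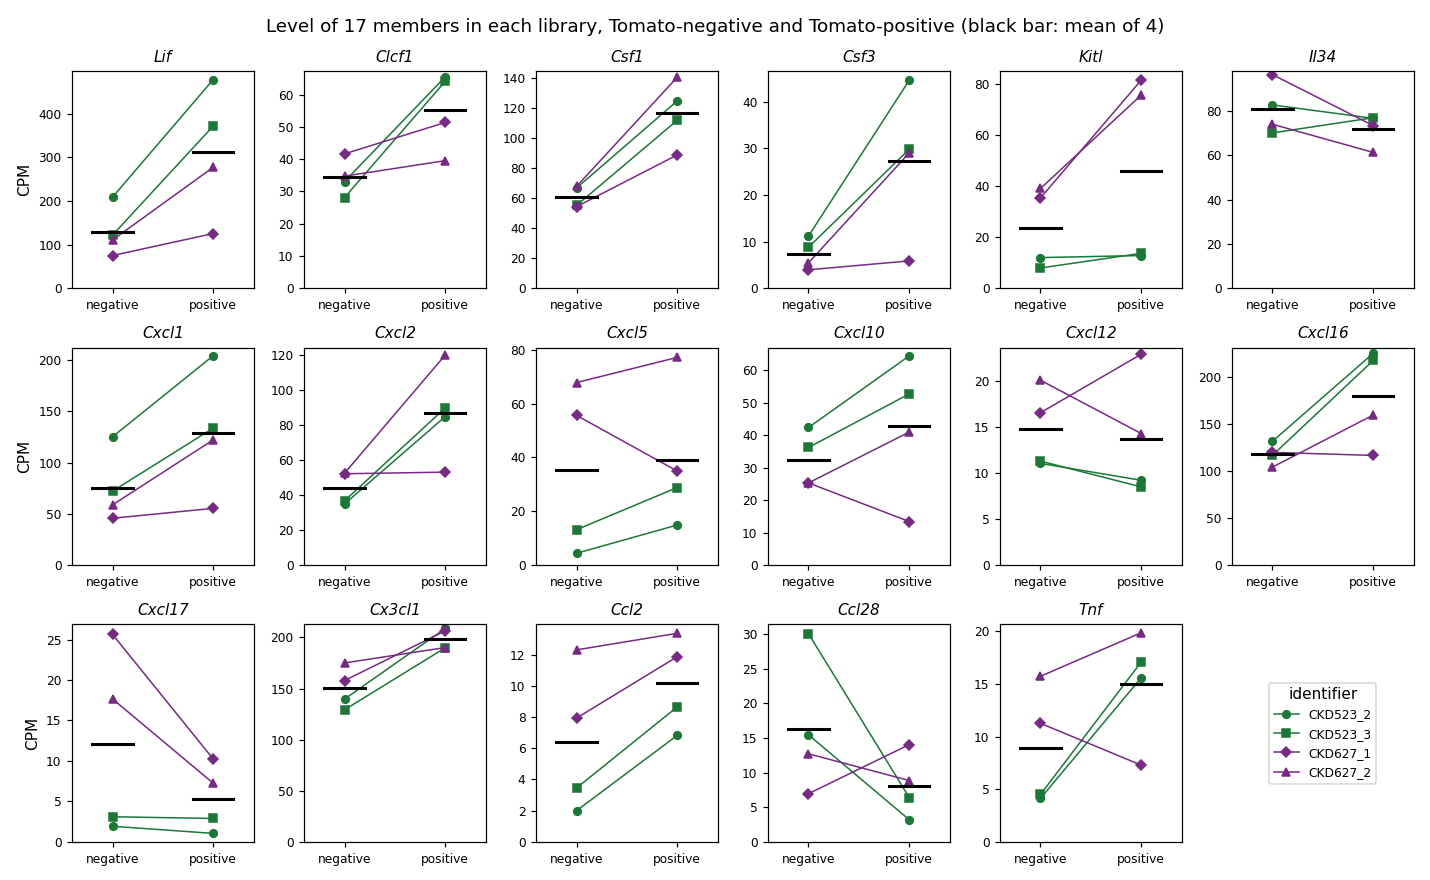
Level in CPM of 17 members in each library, negative at the left and positive at the right of each panel, with a line joining the libraries of 1 identifier and a black bar at the mean of 4 libraries. Csf1 is the clearest case of separate groups, while Kitl, Cxcl5 and Cxcl17 split by prefix.

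Neutrophil-attracting CXC chemokines had 5 members, 3 of them tested, and 2 rose in the paired fit. These genes lie together in mm10 at chr5:90759360-90905938, in the order Cxcl5, Cxcl3, Cxcl15, Cxcl1 and Cxcl2, and their products act on Cxcr2. Cxcl1 was at 125, 72.1, 45.6 and 58.7 CPM in the negative libraries and at 204, 134, 55.3 and 122 CPM in the positive ones. The groups overlapped, since CKD523_2 was highest and CKD627_1 lowest in both. Cxcl1 rose by 0.70 ± 0.16 (SE) on the log2 scale in the paired fit (edgeR adjusted p = 0.0337, 0.419 unpaired), and was lost without CKD523_2 (adjusted p = 0.105), CKD523_3 (0.174) or CKD627_2 (0.152).

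Cxcl2, its neighbour, was at 34.8, 36.6, 52.1 and 52.4 CPM in the negative and at 84.8, 89.7, 53.0 and 119.9 CPM in the positive libraries. In CPM by library totals the groups touched without overlap. The positive library of CKD627_1 (1.02-fold its partner) lay just above the highest negative library. Its TMM factor (1.073) exceeded those of the negative CKD627 libraries (1.05 and 1.053), so on the TMM scale this gap did not hold. The paired difference of Cxcl2, 0.92 ± 0.22 (SE), passed (edgeR adjusted p = 0.0408, 0.0994 unpaired). It was lost without CKD523_2 (adjusted p = 0.129), CKD523_3 (0.188) or CKD627_2 (0.167), and was 1.21 without CKD627_1 (0.00136). Cxcl5 behaved otherwise, at 4.34, 13.1, 55.6 and 67.8 CPM in the negative and at 14.8, 28.8, 34.9 and 77.1 CPM in the positive libraries. It was higher in 3 pairs and lower in CKD627_1, and missed the threshold (paired 0.51 ± 0.34 (SE), edgeR adjusted p = 0.388). That difference was 0.16 without CKD523_2, 0.31 without CKD523_3 and 0.92 without CKD627_1. Cxcl3 and Cxcl15 were not tested, with 94 and 11 counts over all libraries.

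Promoter sequence is shown for the members that rose together in the paired fit, to let the windows before their starts be compared. RefSeq windows were found for Cxcl1, Cxcl2, Csf1 and Lif. Each line gives bases 250 to 31 before the start, 5′ to 3′ on the gene's strand, in build GRCm38.p6, and capitals mark matches to the NF-kappaB consensus in the first 3 lines and to TGANTCA, the site of AP-1 factors, in the last.
Cxcl1: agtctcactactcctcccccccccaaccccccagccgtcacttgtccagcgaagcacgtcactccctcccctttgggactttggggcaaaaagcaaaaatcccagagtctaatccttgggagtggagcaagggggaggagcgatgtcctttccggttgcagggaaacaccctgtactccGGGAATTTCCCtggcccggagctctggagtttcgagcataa
Cxcl2: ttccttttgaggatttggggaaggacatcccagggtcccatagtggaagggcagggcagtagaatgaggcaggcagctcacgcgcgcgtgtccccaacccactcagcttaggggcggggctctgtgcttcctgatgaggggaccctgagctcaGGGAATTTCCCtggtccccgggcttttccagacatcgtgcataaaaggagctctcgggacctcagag
Csf1: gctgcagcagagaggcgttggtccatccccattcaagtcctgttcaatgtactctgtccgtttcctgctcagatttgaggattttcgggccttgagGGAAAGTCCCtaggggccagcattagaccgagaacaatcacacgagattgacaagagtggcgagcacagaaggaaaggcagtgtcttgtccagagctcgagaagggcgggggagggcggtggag
Lif: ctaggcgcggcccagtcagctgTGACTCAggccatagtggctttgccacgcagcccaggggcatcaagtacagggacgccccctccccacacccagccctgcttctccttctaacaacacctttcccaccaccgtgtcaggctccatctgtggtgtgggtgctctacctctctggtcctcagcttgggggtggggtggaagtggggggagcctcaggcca
The windows lie at chr5:90890995-90891214 (plus strand, Cxcl1), chr5:90903649-90903868 (plus strand, Cxcl2), chr3:107760500-107760719 (minus strand, Csf1) and chr11:4257318-4257537 (plus strand, Lif).

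Cxcl1 and Cxcl2 both held GGGAATTTCC, which begins 71 bases before the start of Cxcl1 and 97 bases before that of Cxcl2. In each, the opposite strand also matched, 1 base further on. Csf1 matched on the opposite strand as GGGACTTTCC, with the match beginning 154 bases before its start, and Lif held TGACTCA 228 bases before its start. Searched on both strands of whole RefSeq windows (250 bases before to 50 after the start), the NF-kappaB consensus was in 4.51% and TGANTCA in 7.81% of 32851 windows. Of the 21 tested members with a window (28 windows in all), 9 held the NF-kappaB consensus in at least 1 of their windows and 8 held TGANTCA. Members were counted per gene and the percentages are per window, so they are not the same measure. Among the 9 were Cxcl10, Il6 and Ccl20, which did not pass in the paired fit. An interferon element (TTTC, any 2 bases, TTTC) was in 2 members and 3.44% of windows, and TATAAA in 7 members and 13.6%. A match is a description of the letters and shows no binding.

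The interferon-induced CXC chemokines Cxcl9, Cxcl10 and Cxcl11 attract activated T cells through Cxcr3. Only Cxcl10 was tested. It was at 42.4, 36.2, 25.3 and 25.3 CPM in the negative and at 64.4, 52.7, 13.4 and 40.9 CPM in the positive libraries. It was higher in 3 pairs and lower in CKD627_1, and did not pass (0.22 ± 0.26 (SE), edgeR adjusted p = 0.657). The difference was 0.57 and passed without CKD627_1 (adjusted p = 0.0325), but was 0.08 without CKD523_2 (0.905), 0.11 without CKD523_3 (0.889) and 0.04 without CKD627_2 (0.958). On 5.91% of its exon length Cxcl10 overlaps Art3 on the other strand. Cxcl11 had 57 counts, of which 46 were in positive libraries, and Cxcl9 had 11 counts, all in the negative library of CKD627_2. The annotation lists Cxcl11 as a polymorphic pseudogene, and 41.7% of its exon length overlaps the pseudogene Gm2673 on the other strand.

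Among the other CXC and CX3C chemokines, 5 of 6 were tested and none passed in the paired fit. Cx3cl1 and Cxcl16 are made as membrane-bound proteins that can be shed, and act on Cx3cr1 and Cxcr6. Cx3cl1 was at 139.6, 129, 158 and 175 CPM in the negative and at 209, 189.8, 206 and 190.1 CPM in the positive libraries. The groups did not overlap, but Cx3cl1 missed the threshold (paired 0.37 ± 0.13 (SE), edgeR adjusted p = 0.121). Unpaired, it passed by DESeq2. Cxcl16 was at 132, 117, 119.8 and 104 CPM in the negative and at 225, 218, 117 and 159.6 CPM in the positive libraries. It was higher in 3 pairs and 0.973-fold its partner in CKD627_1 (0.53 ± 0.17 (SE), edgeR adjusted p = 0.096), and passed without that pair (0.72, adjusted p = 0.00936). Some of its reads may be those of Zmynd15, which shares 18.3% of its exon length on the other strand.

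Cxcl12, which keeps Cxcr4-bearing cells in place, was at 11.0, 11.3, 16.5 and 20.1 CPM in the negative and at 9.20, 8.48, 22.9 and 14.3 CPM in the positive libraries. No shift between the groups was seen beyond the spread (paired -0.21 ± 0.23 (SE), edgeR adjusted p = 0.614; -0.43 without CKD627_1). Cxcl17, a mucosal chemokine, was at 1.92, 3.10, 25.6 and 17.7 CPM in the negative and at 1.04, 2.88, 10.2 and 7.24 CPM in the positive libraries. Every positive library was below its partner, at 0.399- to 0.931-fold, but Cxcl17 missed the threshold (paired -0.97 ± 0.29 (SE), edgeR adjusted p = 0.0822). It passed in the paired design by DESeq2 (adjusted p = 0.032) and limma-voom (-1.17, adjusted p = 0.0252). Cxcl14 was at 0.926 to 8.76 CPM and did not pass either.

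CC chemokines were the largest group, with 25 members, of which 9 had no count in any library and 7 were tested. None passed in the paired fit by edgeR (median log2 difference -1.05), while DESeq2 with the pairing called Ccl20 and Ccl9. Ccl2, which recruits monocytes through Ccr2, was at 1.99, 3.45, 7.93 and 12.3 CPM in the negative and at 6.83, 8.65, 11.9 and 13.4 CPM in the positive libraries. It was higher in all 4 pairs, by 1.09- to 3.42-fold, and did not pass (0.88 ± 0.32 (SE), edgeR adjusted p = 0.131). Ccl28, which acts on Ccr10 and Ccr3 and is known from mucosal epithelia, was at 15.4, 30.1, 6.95 and 12.7 CPM in the negative and at 3.19, 6.39, 14.0 and 8.85 CPM in the positive libraries. The positive library was at 0.207- and 0.213-fold its partner in the CKD523 pairs, but at 2.02-fold in CKD627_1. Ccl28 missed the threshold over all pairs (paired -1.05 ± 0.54 (SE), edgeR adjusted p = 0.267) and its value depended on the pairs. It was -1.71 without CKD627_1, which passed (adjusted p = 0.0311), but -0.62 without CKD523_2 (0.548) and -0.59 without CKD523_3 (0.615).

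Ccl20, which draws cells that carry Ccr6, was lower in all 4 pairs, at 0.204- to 0.692-fold its partner (paired log2 -1.36 ± 0.44 (SE), edgeR adjusted p = 0.0955). Ccl25 was lower in all 4 pairs as well, with 243 counts in negative and 110 in positive libraries, and did not pass. For Ccl9 the negative CKD523 libraries had no count and the positive ones 31 and 75. Against a floor of 3 counts over both negative libraries, the pooled Ccl9 level of the positive libraries of that prefix was 35.3-fold that floor. The floor covers counting error in the 0 only, and the spread between libraries was not allowed for. In CKD627 it had 8 and 58 counts in the negative and 28 and 61 in the positive libraries, and over all pairs it did not pass (edgeR adjusted p = 0.217). Ccl27a (6.05 to 11.7 CPM in positive libraries) and Ccl5 (88 counts in all) did not pass.

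The remaining cytokines were scarce. Tnf, tumour necrosis factor, had the most counts, at 4.13, 4.50, 11.3 and 15.7 CPM in the negative and at 15.6, 17.1, 7.28 and 19.9 CPM in the positive libraries. It was 3.77- and 3.79-fold higher in the CKD523 pairs, and 0.647- and 1.26-fold its partner in the CKD627 pairs (paired 0.84 ± 0.43 (SE), edgeR adjusted p = 0.261). Without CKD627_1 the difference was 1.32 and passed (adjusted p = 0.046), while it was 0.49 without CKD523_2 (0.558) and 0.47 without CKD523_3 (0.62). Il1b, which encodes the inflammasome product IL-1β, had 12, 12, 27 and 49 counts in the negative and 0, 12, 4 and 9 in the positive libraries. Every positive library lay below every negative one in CPM, but with 125 counts in all it did not pass (edgeR adjusted p = 0.173). Il33, an alarmin of the same family, was at 1.52 to 4.53 CPM and did not pass (0.16 ± 0.45 (SE), edgeR adjusted p = 0.863).

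Il15, Il7 and Tslp of the common gamma chain and related group, Il23a of the IL-12 family and Il16 were tested, and none passed in the paired fit. Il15 was at 7.19, 9.94, 6.40 and 7.16 CPM in the negative and at 6.46, 5.43, 10.04 and 9.76 CPM in the positive libraries, so that it was lower in both CKD523 and higher in both CKD627 pairs. Il16 shares 15.3% of its exon length with Stard5, an abundant gene on the other strand, and its 163 counts could partly be those of Stard5.

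Of the 44 members not tested, 17 had at least 10 counts over the 8 libraries, 9 had 1 to 9 and 18 had none. A total of 0 over all libraries allows a level of up to 0.0233 CPM (3 counts, covering counting error only). Among the 18 were Ccl19, the Ccl21 copies, Il3, Il13, Il17a, Il21, Il22 and Il25, most of which are products of T cells or lymphoid stroma. Cxcl13 (124 counts, 89 of them positive) and Ccl7 (98, 63 positive) were the highest untested genes beside Cxcl3. Ccl8 had 33 counts, Il5 11, Ccl6 39 and Il1a 36. All 33 counts of Ccl8 and all 11 of Il5 were in positive libraries, 24 and 10 of them in CKD523_3, while Ccl6 had 32 of 39 and Il1a 23 of 36 in negative libraries. The others with at least 10 counts were Ccl3 (35), Il24 (30), Ccl4 (28), Il12b (16), Il10 (13) and Il19 (10). Counts this low fell in a few libraries each and give no comparison between the groups.

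Genes can be ranked against each other only per kilobase of exon, and the order differed between the groups. In negative libraries the highest mean levels were those of Il34 (41.3 CPM per kb), Cxcl1 (40.2), Cxcl16 (39.1), Cx3cl1 (38.3), Lif (29.6) and Cxcl2 (21.3). In positive libraries Lif (72.0 CPM per kb) and Cxcl1 (68.7) came first, before Cxcl16 (59.5), Cx3cl1 (50.6), Cxcl2 (42.0), Il34 (36.8) and Csf1 (22.1). The same 6 genes led in both groups, and the order of neighbours among them was not tested. By counts alone, the 5 leading members of a library held 55.1 to 73.5% of all member counts.

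Members were also compared by the prefix of the titles. With the Tomato group as a covariate, edgeR called 5 members higher in CKD627 (15.2%, against 9.66% of all genes). It called 4 lower (12.1%, against 11.4%). In either direction 27.3% of tested members passed, against 21.1% of all genes. This fit counts 4 libraries per prefix, though they come from 2 identifiers whose libraries correlate. With the counts of each identifier summed, an alternative chosen after seeing the data, the same 9 members and Ccl20 passed (23.3% of all genes). Higher were Kitl by 2.10 ± 0.19, Cxcl17 by 2.47 ± 0.37, Cxcl5 by 1.92 ± 0.42, Ccl2 by 1.12 ± 0.32 and Cxcl12 by 0.74 ± 0.21 on the log2 scale (SE; adjusted p = 0.000106, 0.000928, 0.00742, 0.0288 and 0.0277). Lower were Lif (-1.10 ± 0.26), Cxcl1 (-1.07 ± 0.26), Cxcl10 (-1.01 ± 0.28) and Cxcl16 (-0.56 ± 0.15), with adjusted p = 0.0111, 0.0138, 0.0262 and 0.0219. Each CKD627 library lay above every CKD523 library for 5 of the 33 tested members, Kitl, Cxcl17, Cxcl5, Cxcl12 and Csf2. This was near the share of all tested genes (14.9%). For none was it the reverse, and the share of all genes for the reverse was not counted.

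Lif and Cxcl1 rose in Tomato-positive cells in the paired fit and were lower in CKD627, while Kitl and Cxcl17 had their highest levels there. Kitl, Cxcl17, Cxcl5, Lif and Cxcl1 passed without any 1 library. Without the positive library of CKD523_2 or the negative library of CKD627_2 only these 5 passed, and without the negative library of CKD523_2, 6 passed. Cxcl16 was also lost when library totals alone set the scale. Marker levels moved with the prefix as well, where 9.66% of all genes were higher in CKD627 and 11.4% lower. Higher in CKD627 were 7 of 9 endothelial, 7 of 9 principal cell, 6 of 7 loop of Henle and 5 of 7 intercalated cell markers. Lower were 11 of 14 tested proximal tubule markers. Endothelial markers, for example, summed to 65.5 to 292 CPM in CKD523 and to 409 to 777 CPM in CKD627. Their part in the prefix differences of the members was not tested.

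**Figure D3:**
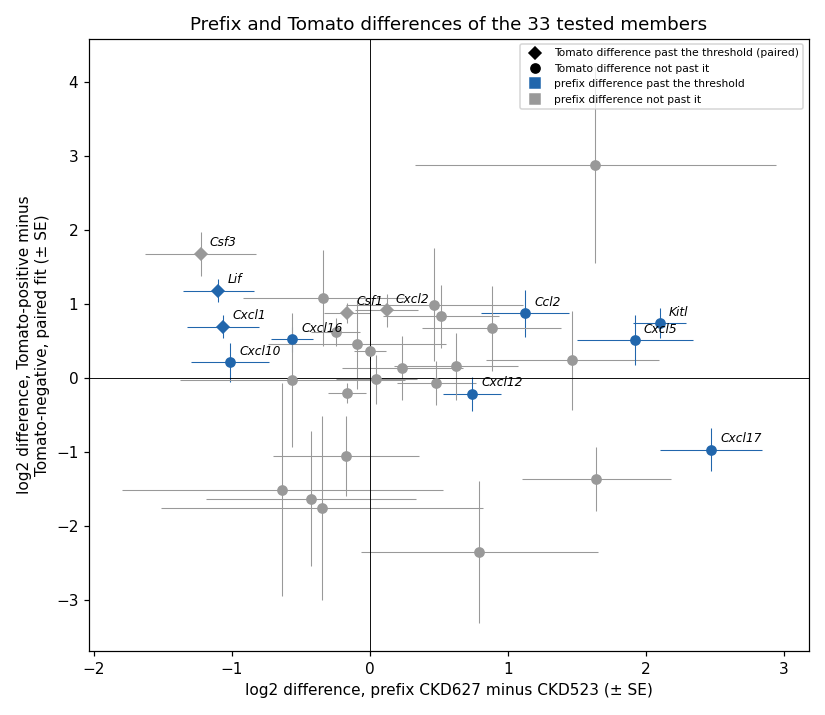
Each point is 1 of the 33 tested members, with its log2 difference between prefixes on the horizontal and between Tomato groups (paired fit) on the vertical axis, and bars of 1 SE. Lif and Cxcl1 lie at the upper left, Kitl at the upper right and Cxcl17 at the lower right.

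Differences within a prefix came from an unpaired fit of all 8 libraries with a mean for each prefix and Tomato group, so the spread was shared and each mean held 2 libraries. For CKD523 7 members passed (7.95% of all genes did), namely Ccl28, Ccl9, Clcf1, Csf1, Cxcl16, Cxcl2 and Tnf. For CKD627 2 passed (6.22% of all genes), Csf1 and Kitl. The median log2 difference of the 33 members was 0.51 in CKD523 and 0.21 in CKD627. Tested directly, no member's Tomato difference differed between the prefixes by edgeR (0 of 33, 0.014% of all genes), with 8 at an unadjusted p under 0.05. By DESeq2 1 member, Ccl28, and 1.8% of all genes passed. Ccl28 differed most clearly, at -2.32 in CKD523 and 0.21 in CKD627 (difference 2.53 ± 0.65 (SE), edgeR adjusted p = 0.198), and it passed without the negative library of CKD627_2, where 10.3% of all genes passed. For Tnf the values were 1.84 and 0.02 (difference -1.82 ± 0.61, adjusted p = 0.27), for Clcf1 1.01 and 0.24 (-0.77 ± 0.27, adjusted p = 0.29) and for Kitl 0.35 and 1.07 (0.73 ± 0.30, adjusted p = 0.349). The point values of Csf1, Csf3, Lif and Cxcl1 lay closer together, with 1.83 and 1.92 for Csf3, 1.30 and 1.13 for Lif and 0.71 and 0.77 for Cxcl1. Their differences between the prefixes were 0.02 ± 0.33 (Csf1), 0.09 ± 0.79 (Csf3), -0.17 ± 0.51 (Lif) and 0.06 ± 0.52 (Cxcl1, all SE). Errors this wide do not show that the prefixes were alike. Of these genes only Csf1 passed within a prefix. For Cxcl2 the values were 1.21 and 0.73.

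The receptors of these ligands were read from 2 lists. Of 23 chemokine receptors 5 were tested. Cxcr4, the receptor of Cxcl12, fell in the paired fit (3.81% of all genes did), and no other of the 5 passed. It was at 10.04, 20.4, 33.5 and 44.5 CPM in the negative and at 6.61, 9.67, 16.5 and 6.84 CPM in the positive libraries, and was lower in every pair (-1.39 ± 0.32 (SE), edgeR adjusted p = 0.0351, 0.134 unpaired). Ackr3, a scavenging receptor of Cxcl12, missed the threshold (paired -0.48 ± 0.17 (SE), edgeR adjusted p = 0.128). Several receptors of the chemokines named above had few counts: Cxcr2 had 3 in negative and 10 in positive libraries, Cx3cr1 18 and 8, Cxcr6 1 and 21, and Ccr2 24 and 17.

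Of 49 receptors for interleukins, growth factors and tumour necrosis factor, 34 were tested. In the paired fit 5 rose (3.82% of all genes did) and 1 fell (3.81%). None passed unpaired by edgeR (0.595% of all genes), with 9 at an unadjusted p under 0.05. Il1r1, the signalling receptor of IL-1, rose by 0.89 ± 0.16 on the log2 scale (SE; edgeR adjusted p = 0.0153, 0.375 unpaired), from 9.11, 10.1, 28.1 and 32.7 to 21.8, 18.4, 48.9 and 57.4 CPM. Il18r1, a subunit of the IL-18 receptor, rose from 22.1, 15.4, 31.6 and 23.2 to 40.0, 39.4, 53.2 and 44.6 CPM (0.94 ± 0.16 (SE), edgeR adjusted p = 0.0113, 0.0618 unpaired). Both were higher in every pair. Il17rb (0.99), Tnfrsf1b (0.97) and Il1rl2, the IL-36 receptor (1.52), rose as well, and Il11ra1 fell by 0.65.

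The receptors of the products whose genes rose were read one by one. Lifr was at 57.5 ± 17.5 CPM in negative and 61.0 ± 7.62 CPM in positive libraries (SD, n = 4 each), and its paired difference was 0.09 ± 0.18 (SE; edgeR adjusted p = 0.788). Il6st, the subunit it pairs with, was at 185 ± 50.4 and 282 ± 18.0 CPM (SD, n = 4 each) and did not pass (0.61 ± 0.18 (SE), edgeR adjusted p = 0.0722). Csf1r was at 26.5 ± 8.84 and 10.9 ± 6.07 CPM (SD, n = 4 each), and missed the threshold (paired -1.52 ± 0.42 (SE), edgeR adjusted p = 0.0617). Csf3r was not tested, with 35 counts in negative and 15 in positive libraries. Kit, the receptor of the Kitl product, did not pass (0.29 ± 0.16 (SE), edgeR adjusted p = 0.3).

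**Figure D4:**
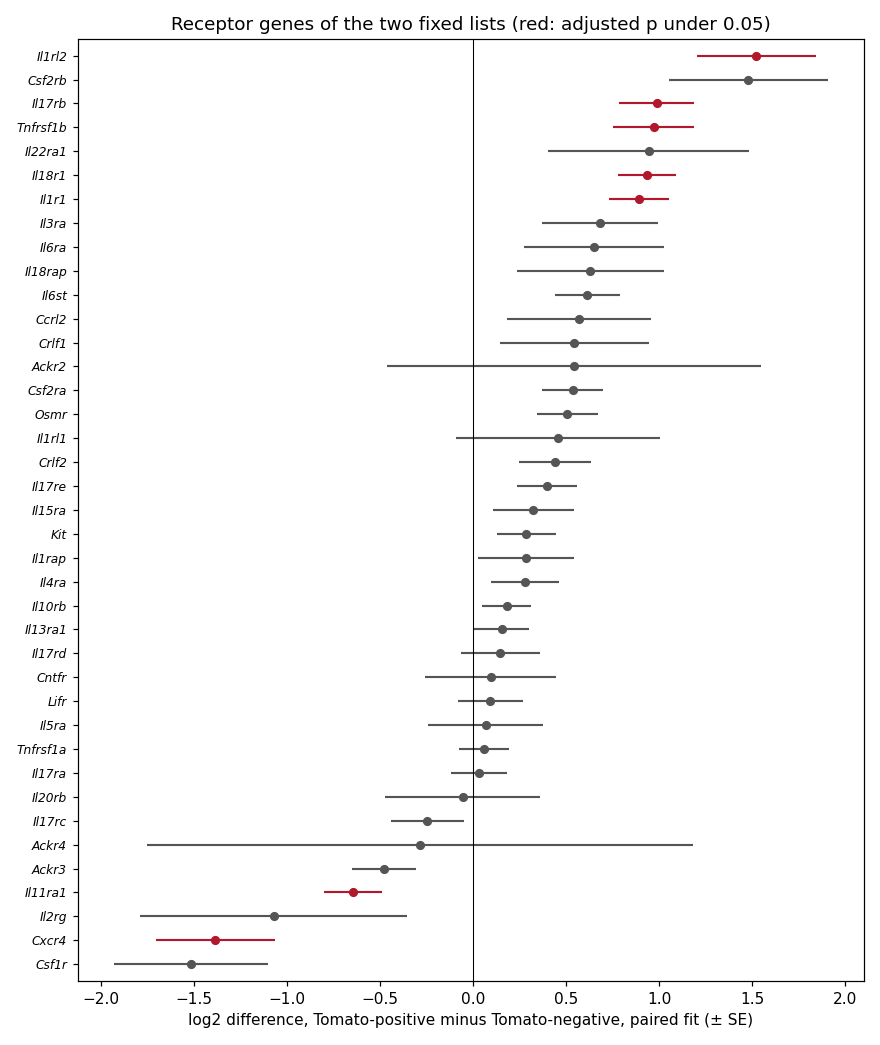
Paired log2 difference with 1 SE for the 39 tested receptor genes of both lists, with those past the threshold in red. Cxcr4 and Il11ra1 lie to the left of 0 and Il1r1, Il18r1, Il17rb, Tnfrsf1b and Il1rl2 to the right.

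Markers of other cells were read beside the members. Of 6 general leukocyte markers 3 were tested and none passed in the paired fit, and they summed to 3.04 to 18.2 CPM in negative and 4.45 to 15.4 CPM in positive libraries. Macrophage markers summed to 39.2 to 57.1 and 33.1 to 48.4 CPM, and 1 of 8 tested, Cd68, was higher. Csf1r of the same list went the other way without passing. It fell in every pair, from 28.5, 37.7, 16.8 and 23.1 to 13.7, 15.7, 12.3 and 2.06 CPM. Itgam, with few counts, was lower in every pair too, so the sum hides opposite shifts. No marker of neutrophils could be tested, and the 7 of them summed to at most 2.94 CPM in a negative and 1.12 CPM in a positive library. Of the T and NK cell list, Cd3e and Cd3d had no count in any library, but Cd8a had up to 37. That list summed to at most 2.28 CPM in a negative and 1.18 CPM in a positive library. B cell markers reached 2.46 and 4.97 CPM, and dendritic cell markers 1.74 and 1.81 CPM. No tested marker of endothelial cells, podocytes or fibroblasts and pericytes passed in the paired fit. Tubule markers did differ with the Tomato groups in the paired fit, in which 3.82% of all genes were higher and 3.81% lower. All 9 principal cell markers were higher, with sums of 223 to 2470 CPM in negative and 1050 to 5680 CPM in positive libraries. Of the injured proximal tubule list, 3 of 10 markers were higher. Lower were 6 of 14 proximal tubule, 5 of 7 loop of Henle, 3 of 6 distal and 3 of 7 intercalated cell markers. The part of these markers in the rise of Lif, Csf1, Csf3, Cxcl1 and Cxcl2 was not tested.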

How the data were processed

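RNA of 4 Tomato-negative and 4 Tomato-positive libraries had been prepared as total RNA with a kit for single cells. The deposited values were raw counts per gene symbol, made with subread per the file headers. Per the submitters' processing notes, mm10, edgeR 3.32.1 and limma 3.46.0 were used. The counter, annotation, strand setting and treatment of multiply matching reads are not stated in the sources used here, so overlapping or near-identical genes, such as the Ccl21 copies, are uncertain.

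Members, lists and tests were chosen with earlier results of these data known. Genes with at least 10 counts in 4 libraries and 15 in all were kept (filterByExpr). Counts were scaled by TMM factors and tested with edgeR 4.0.16 in R 4.3.3 (quasi-likelihood, 2-sided, Benjamini-Hochberg over all 14284 genes). CPM used library totals. Fits were unpaired, paired by identifier, by prefix with the Tomato group as a covariate, and by 4 cell means for the difference between prefixes. Standard errors were the log2 difference over the root of F. Alternatives used DESeq2 1.42.0, limma-voom (limma 3.58.1), other scaling or filters, and left out each library or pair; summed counts per identifier were added after seeing the data. After removal of group means, libraries of 1 identifier, as the titles give it, had correlations over genes of 0.464, 0.321, 0.33 and 0.465. Each exceeded the limit of 0.1 for pairing. The other identifier of the same prefix gave 0.296 to 0.467, so the limit could not tell a shared identifier from a shared prefix. No replicate library was a copy of another: chi-square over degrees of freedom was 15.5 to 191.

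Values in every library are given for members called in any test and for the 15 with the highest mean CPM; Ccl9, Il1b, Il15, Osm and other members given by library were chosen after their values were seen. Of other lists, up to 4 genes with the smallest paired p per list were to be named, and the receptors of named ligands were added after their values were seen. Positions came from GENCODE M21, which had 1 gene for 75 of 77 members. Promoters came from RefSeq (GRCm38.p6), the same build as mm10, with a window for 21 of 33 tested members. The statistics were tested on simulated data. No column of per-sample values was left out.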

Additional observations from a re-analysis of the deposited data

How the results depend on the processing

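With other scaling factors, filters or limma-voom, 0 members passed unpaired in edgeR or limma, as with any 1 library left out. DESeq2 gave 4 (Csf1, Csf3, Cx3cl1 and Cxcl2, 7.06% of all genes passed) and the fit with the replicate block 5 (7.62%). The fit with the prefix as a covariate gave 7 (Clcf1, Csf1, Csf3, Cxcl16, Cxcl2, Kitl and Lif, 10.7%). The paired count of 5 was 11 by DESeq2 (14.2% of all genes) and 0 without the replicate block (0.595%). Leaving out 1 pair gave 1 (Lif, without CKD523_3 or CKD627_2, 1.41 and 2.7% of all genes) to 10 (without CKD627_1, 9.25%), and 3 without CKD523_2 (Csf1, Kitl and Lif, 3.59%). Other scalings, filters and limma-voom gave 5 to 7, with all 5 main members in each. The count of 9 by prefix was 9 to 11 under other scalings, filters and tools, 10 with counts summed per identifier, and 5 to 10 with 1 library left out. For the difference between prefixes, the count of 0 was 1 by DESeq2 (1.8% of all genes), 4 with no filter on low counts (3.17%), 0 with the replicate block and 0 to 1 with 1 library left out (1 without the negative library of CKD627_2, with 10.3% of all genes). Of the 17 members given by library, none changed sign under an alternative of the paired fit; other members were not followed. Across 11 such alternatives Lif passed in 10, Csf1 in 8 and Csf3, Cxcl1 and Cxcl2 in 7 each. Other scalings moved the median of all genes by less than 0.05. A member without counts in a group could still lie at up to 0.0481 (negative) or 0.0453 CPM (positive). Alternatives were not run for receptors and markers.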

Other observations

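The 25 genes of a list of antagonists and JAK-STAT signalling were all tested. In the paired fit 2 rose (3.82% of all genes did) and 1 fell (3.81%). None passed unpaired by edgeR (0.595% of all genes), with 6 at an unadjusted p under 0.05. Jak3, the kinase of the common gamma chain, rose from 43.6, 39.8, 67.2 and 75.2 CPM in the negative to 87.5, 92.0, 112 and 88.9 CPM in the positive libraries of CKD523_2, CKD523_3, CKD627_1 and CKD627_2 (log2 0.76 ± 0.17 (SE), edgeR adjusted p = 0.029, 0.0928 unpaired). Socs4 rose by 0.87 ± 0.21 on the log2 scale (SE; edgeR adjusted p = 0.0405, 0.205 unpaired). Socs2, a feedback inhibitor of growth hormone signalling, fell from 59.7, 50.6, 50.1 and 57.6 to 24.3, 24.4, 40.7 and 36.3 CPM (-0.86 ± 0.19 (SE), edgeR adjusted p = 0.03, 0.0645 unpaired). Its groups did not overlap. Socs3, a feedback target of the IL-6 family, was at 589 ± 66.3 and 687 ± 148 CPM (SD, n = 4 each) and did not pass (0.17 ± 0.17 (SE), edgeR adjusted p = 0.578). Stat3 (0.32 ± 0.13 (SE), edgeR adjusted p = 0.162) and the IL-1 antagonist gene Il1rn (0.11 ± 0.34 (SE), edgeR adjusted p = 0.879) did not pass.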
